A study of Homo sapiens with 6 samples.

Results

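Box H/ACA snoRNAs and scaRNAs were the genes whose symbol started with SNORA or SCARNA in the deposited lists of GAPDH binding sites, and 32 of the 947 genes in those lists met this rule. They comprised 29 SNORA and 3 SCARNA genes and held 58 peaks. Glyceraldehyde-3-phosphate dehydrogenase (GAPDH), an enzyme of glycolysis that also binds RNA, had been crosslinked to RNA and precipitated (CLIP-seq) from MOLM-13, an established human acute myeloid leukaemia cell line. Cells were kept in medium with galactose in place of glucose, in low glucose or in normal glucose, with 2 samples per condition, to ask whether the sugar supply affects the RNA that GAPDH binds. All 3 conditions used the same cell line, and sugar supply was the difference that the labels state. The authors joined both samples of each condition into 1 list of positions without read counts or scores. The spread between samples, the depth and the strength of a peak are therefore unknown, and no difference between conditions could be tested. Each interval below is an exact Clopper-Pearson 95% interval that covers counting error only. It takes the counted peaks, genes, regions, sites or pairs of peaks as independent.

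Box H/ACA snoRNAs are nuclear RNAs that fold into hairpins separated by a box H (ANANNA) and closed by an ACA box shortly before the 3′ end. Together with dyskerin (DKC1), NHP2, NOP10 and GAR1 they guide the conversion of uridine to pseudouridine in ribosomal RNA. The scaRNAs reside in Cajal bodies and guide the modification of spliceosomal snRNAs. In human cells most of these RNAs are excised from introns of other genes and trimmed to their mature ends.

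In galactose, 18 of 337 peaks lay on 14 H/ACA snoRNA or scaRNA genes, 5.34% of the list (interval 3.2 to 8.31). In low glucose there were 23 of 484 peaks on 22 genes, 4.75% (3.04 to 7.05). In normal glucose there were 17 of 495 peaks on 15 genes, 3.43% (2.01 to 5.44). These intervals overlapped, and with 1 joined list per condition the difference between the shares was not tested. The related box C/D snoRNAs, which guide ribose methylation, held 7 galactose peaks (2.08%), 9 low glucose peaks (1.86%) and 19 normal glucose peaks (3.84%). Of the 239 SNORA and SCARNA genes annotated in GENCODE, 13.4% had a peak in at least 1 list, against 22 of 314 annotated box C/D genes (7.01%). The share over all annotated genes is not given here. Which annotated genes the cells express is unknown from the lists, so these shares do not show a preference for either class.

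The sequences of the RNAs were set against their names. An ACA stood exactly 3 nt before the annotated 3′ end in 23 of the 29 SNORA genes with a peak (79.3%, interval 60.3 to 92.0), and in 142 of all 214 annotated SNORA genes (66.4%). A match to box H beginning within the upstream portion of the RNA, before its midpoint, was found in 26 of the 29 (89.7%) and in 199 of the 214 (93.0%). Among the 3 scaRNAs, SCARNA22 carried both, SCARNA12 had a box H match and an ACA within its last 10 nt, and SCARNA2 had neither. SCARNA2 is known as a box C/D scaRNA that guides methylation of U2 snRNA, SCARNA12 as a guide of mixed type for U5 snRNA. The group was thus defined by symbol, with SCARNA2 as a member whose sequence is not of the H/ACA type. ANANNA is a loose pattern that can match without a box H, and how often it would do so was not counted.

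A crosslink site that stood alone had been extended by 50 nt on each side, which gives the narrowest peaks of the lists, and nearby sites had been merged into wider peaks. The outer sites of each peak were taken as 50 nt inside its edges (a single one in the narrowest peaks) and were placed on the RNA of the annotated gene, counted from its first base as nt 1. Strand came from the annotation, because the lists have none. The map of members by host gene shows every peak and its outer sites.

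**Figure D1:**
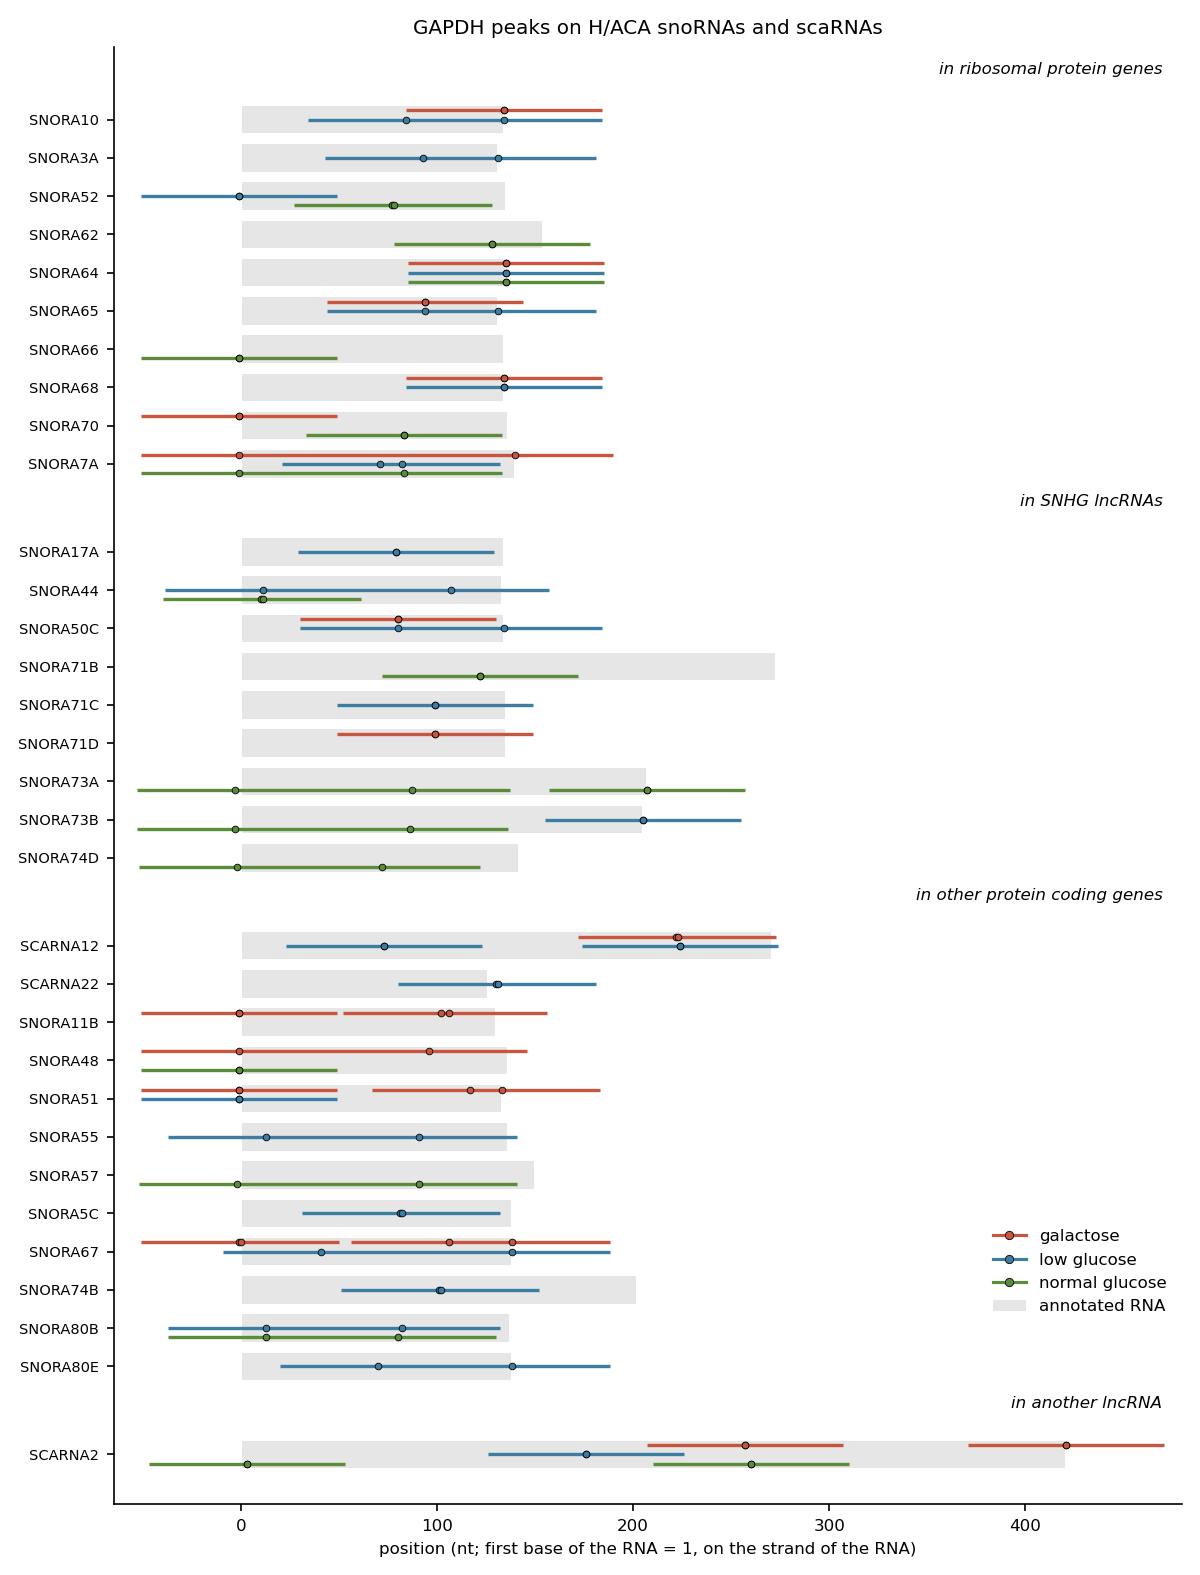
Peaks (lines) and their outer crosslink sites (points) of the 32 genes along the annotated RNA (grey bar), in nt from its first base, by list and by kind of host gene. Many outer sites fell next to the left or right edge of the grey bar, as for SNORA64 in all 3 lists, and the remaining ones lay mostly beyond the middle of the RNA.

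The outer sites gathered at the annotated ends of the RNAs, mostly just outside them. An outer site lay within 5 nt of the first or last base in 34 of the 58 peaks (58.6%, interval 44.9 to 71.4), in 21 of the 32 genes. Of all 1316 peaks in the lists, 16.5% had an outer site within 5 nt of an end of any annotated gene, and of the 1223 peaks without a named snoRNA or scaRNA 12.6% had one. Box C/D snoRNAs had 29 of 35 such peaks (82.9%, 66.4 to 93.4). The 16.5% and 12.6% were set against genes of any length, so they are not matched to RNAs as short as these. In an RNA of the median length of 135 nt, 22 places lay within 5 nt of an end. They made up 9.36% of the places whose peak, with 50 nt on each side, would reach the RNA. Of the 30 narrowest peaks, with a single site each, 17 had that site within 5 nt of an end (56.7%). The tolerance of 5 nt was chosen after positions had been seen.

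At the 3′ end, 18 of the 19 end sites, in 13 genes, lay at precisely the same place, 1 nt past the last annotated base. Of these, 10 were on genes of the plus strand and 8 on genes of the minus strand. Starts were read as 1-based, the reading that gives both strands the same distance, so this agreement follows from that choice. The exception was SCARNA22 (known as an orphan H/ACA RNA within NSD2), with a site 5 nt past its last base in low glucose. The following stretches show the last 25 nt and the next 5 nt of 5 of the RNAs whose 3′ ends carried such a site, written 5′ to 3′ in the DNA letters of hg38, with the ACA box and, further on, the base at the site in capitals.
SNORA64: tctttccttgaggggtgcaACAggcCctgg
SNORA10: ctctgttcctaggagtgcgACAattTttgg
SNORA67: ctgccttccttggctgcccACAtggAtgcc
SNORA73A: gagacaaaccatgcaggaaACAgccTtcta
SNORA73B: gagacaaaccatgcaggaaACAtatCtagt
SNORA64 lies at chr16:1962968-1962997 (minus strand), SNORA10 at chr16:1962329-1962358 (minus) and SNORA67 at chr17:7578067-7578096 (plus). SNORA73A lies at chr1:28507547-28507576 and SNORA73B at chr1:28508738-28508767, both on the plus strand. The base at the site was C in 2 of the 5, T in 2 and A in 1. The equal distance from the ACA follows from their selection.

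At the 5′ end, 11 of 17 end sites, in 8 genes, lay 2 nt before the first annotated base. Another 2 lay 3 nt before it (SNORA57 and SNORA74D, both in normal glucose) and 2 lay 4 nt before it (SNORA73A and SNORA73B, both in normal glucose). In galactose SNORA67 had neighbouring sites 2 nt and 1 nt before its first base. SCARNA2 had a site 2 nt after its first base in normal glucose. Of these RNAs, 5 with a site 2 nt upstream are shown with the 10 nt before and the first 20 nt of the RNA, the base at the site in capitals.
SNORA51: gctgggtgTaggcctcctggtgcttaccac
SNORA70: ttgggatgCtccgcagccaattaagccgac
SNORA48: cattgtggActgtccctgacctgggtagag
SNORA52: tttgttttCatggtccatcctaatccctgc
SNORA66: tggtgtaaTtgtgcaaactcgatcactagc
These stretches are at chr20:2655057-2655086, chrX:154400271-154400300, chr17:7574703-7574732, chr11:811671-811700 and chr1:92840709-92840738 of hg38, all on the plus strand. The base itself varied between the RNAs, with T in 2, C in 2 and A in 1 of the 5, and the distance is the one they were selected for.

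**Figure D2:**
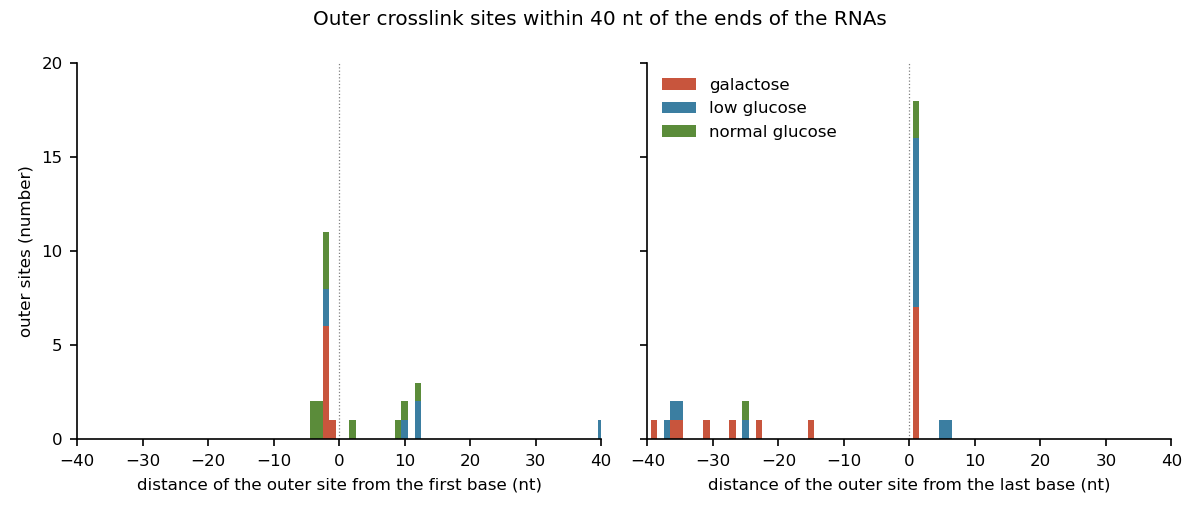
Number of outer sites (y axis) by their distance in nt from the first base (left) and from the last base (right) of the RNA, stacked by list; the dotted line marks the base itself. The left panel has its peak 2 nt before the first base (11 sites) and the right panel 1 nt after the last base (18 sites).

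Which end carried the site differed between the lists. In galactose, 6 of 18 peaks had a site at the 5′ end (33.3%, interval 13.3 to 59.0) and 7 at the 3′ end (38.9%, 17.3 to 64.3). In low glucose, 2 of 23 peaks had one at the 5′ end (8.7%, 1.07 to 28.0) and 10 at the 3′ end (43.5%, 23.2 to 65.5). In normal glucose, 8 of 17 peaks had one at the 5′ end (47.1%, 23.0 to 72.2) and 2 at the 3′ end (11.8%, 1.46 to 36.4). Among peaks at an end, low glucose thus held mainly 3′ ends and normal glucose mainly 5′ ends. The intervals of the 2 lists overlapped at each end, and the difference was not tested.

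Over all peaks and any annotated gene, a 5′ end was met by 10.4% of galactose, 6.2% of low glucose and 12.9% of normal glucose peaks. A 3′ end was met by 8.01% of galactose, 7.23% of low glucose and 8.48% of normal glucose peaks. Over all peaks, 5′ ends were thus likewise least frequent in low glucose, and the shares at 3′ ends were close to each other. Box C/D snoRNAs had a site at a 5′ end in 1 of 7 galactose peaks, in none of 9 low glucose peaks (interval up to 33.6%) and in 9 of 19 normal glucose peaks, so their 5′ ends were likewise most frequent in normal glucose. At the 3′ end they had 6 of 7 galactose, 7 of 9 low glucose and 15 of 19 normal glucose peaks. Either end was met by 12 of 18 galactose peaks on H/ACA RNAs and scaRNAs (66.7%), against 17.5% of all galactose peaks. The same count was 12 of 23 low glucose peaks (52.2%), against 13.0% of all, and 10 of 17 normal glucose peaks (58.8%), against 19.2% of all. The shares of all peaks were again not matched for the length of the gene. The middle of the peak lay downstream of the midpoint of the RNA for 12 of 18 galactose peaks (66.7%, 41.0 to 86.7), for 16 of 23 low glucose peaks (69.6%, 47.1 to 86.8) and for 6 of 17 normal glucose peaks (35.3%, 14.2 to 61.7). This is no separate difference from that of the ends, because a single site at the 3′ end puts the middle of its peak there too. The share over all peaks is not given for it.

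**Figure D3:**
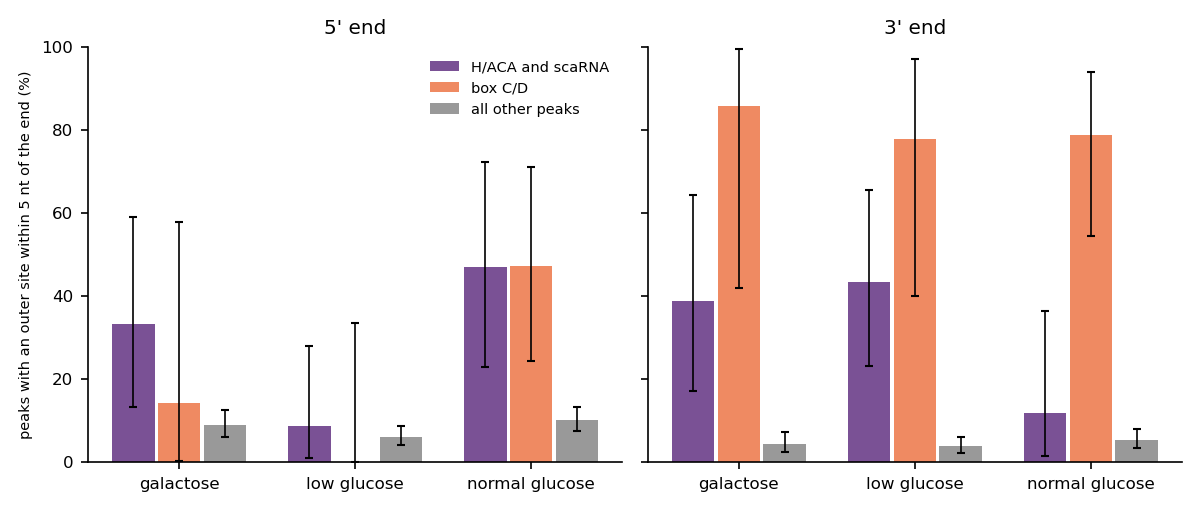
Share of peaks (%) with an outer site within 5 nt of a 5′ end (left) or 3′ end (right), by list and class of RNA, with 95% Clopper-Pearson intervals; the class of all other peaks was set against the ends of any annotated gene. H/ACA and scaRNA peaks met a 5′ end in 8.7% of low glucose and 47.1% of normal glucose peaks, and a 3′ end in 43.5% of low glucose and 11.8% of normal glucose peaks.

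A peak in every list was found for 3 of the 32 genes (9.38%, against 15.7% of all 947 genes), namely SCARNA2, SNORA64 and SNORA7A. At least 2 lists were reached by 16 of the 32 (50%, interval 31.9 to 68.1), against 33.4% of all genes and 7 of 22 box C/D genes (31.8%). Galactose and low glucose shared 7 genes that normal glucose lacked (SCARNA12, SNORA10, SNORA50C, SNORA51, SNORA65, SNORA67 and SNORA68). Galactose and normal glucose shared SNORA48 and SNORA70. Low and normal glucose shared SNORA44, SNORA52, SNORA73B and SNORA80B. Found in galactose alone were SNORA11B and SNORA71D. In low glucose alone were SCARNA22, SNORA17A, SNORA3A, SNORA55, SNORA5C, SNORA71C, SNORA74B and SNORA80E. In normal glucose alone were SNORA57, SNORA62, SNORA66, SNORA71B, SNORA73A and SNORA74D. Of the 32 genes, 2 were thus in galactose alone, 8 in low glucose alone and 6 in normal glucose alone. Of all 947 genes, 102 were in galactose alone, 229 in low glucose alone and 300 in normal glucose alone. Galactose and low glucose alone shared 83 of the 947, galactose and normal glucose 33, and low and normal glucose 51.

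When peaks that overlapped by at least 1 nt were merged over the lists, 39 regions resulted, of which 3 had a peak in all 3 lists (7.69%, interval 1.62 to 20.9), 12 in 2 lists and 24 in 1 list. Of all 951 regions, 11.0% had a peak in all 3. Of the galactose peaks, 11 of 18 (61.1%) were met by a low glucose peak, near the 57.0% of all galactose peaks, and 5 of 18 (27.8%) by a normal glucose peak, against 41.2% of all. Of the low glucose peaks, 10 of 23 (43.5%) were met by galactose and 6 of 23 (26.1%) by normal glucose, against 39.7% and 27.9% of all peaks. Of the normal glucose peaks, 5 of 17 (29.4%) were met by galactose and 6 of 17 (35.3%) by low glucose, against 28.3% and 27.3%. The background shares lay within the intervals of the H/ACA and scaRNA peaks in each of the 6 comparisons.

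Where peaks of 2 lists overlapped, 12 of 22 pairs shared a start or an end to the nucleotide (54.5%, interval 32.2 to 75.6) and 5 pairs shared both. A gene with peaks in all 3 lists, such as SNORA64, gave several pairs, so the pairs are not independent and the interval is too narrow. Over all genes 376 of 469 overlapping pairs shared a start or an end (80.2%). By pair of lists, 7 of 11 galactose and low glucose pairs on these RNAs did so, against 81.9% of all such pairs, 3 of 5 galactose and normal glucose pairs, against 81.6%, and 2 of 6 low and normal glucose pairs, against 76.3%. SNORA64, in an intron of RPS2, had the same peak in all 3 lists (chr16:1962922-1963022), with its site 1 nt past the last base. SNORA51 (chr20:2655015-2655115, in NOP56) had an identical peak in galactose and low glucose, at the 5′ end. Of the 16 genes with peaks in at least 2 lists, 6 shared no edge between lists (SCARNA12, SCARNA2, SNORA44, SNORA52, SNORA70 and SNORA73B).

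Several RNAs were thus listed in more than 1 condition but at another place. SNORA52, in RPLP2, had its site 2 nt before the first base in low glucose and sites at nt 77 and 78 of 134 in normal glucose. SNORA70, in RPL10, had its site 2 nt before the first base in galactose and at nt 83 of 135 in normal glucose. SNORA73B, whose counterpart in yeast is needed for cleavage of the rRNA precursor, had its site 1 nt past the last base of 204 in low glucose, and outer sites 4 nt before the first base and at nt 86 in normal glucose. Its near copy SNORA73A (93.2% identical) had no peak in galactose or low glucose and both kinds of place in normal glucose, with outer sites 4 nt before the first base and at nt 87 in one peak and 1 nt past the last base of 206 in the other. At most 3.11% of the 30-mers in the peaks of either copy occur more than once in hg38.

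SNORA7A, in RPL32, had the widest peak of the group and of the whole galactose list (242 nt), with outer sites 2 nt before the first and 1 nt past the last of its 139 bases. Its low glucose peak had outer sites at nt 71 and 82, and its normal glucose peak 2 nt before the first base and at nt 83. SNORA7A belongs to a repeated sequence: 57.7% of the 30-mers of the galactose peak, 69.9% of the low glucose peak and 67.9% of the normal glucose peak occur more than once in hg38, so reads of its copies may be mixed. The low glucose peak of SNORA10 (51.6%) and the normal glucose peak of SNORA70 (70.8%) exceeded 50% as well. In all, 1 of 18 galactose, 2 of 23 low glucose and 2 of 17 normal glucose peaks did, against 18.1% of all galactose, 13.6% of all low glucose and 25.3% of all normal glucose peaks.

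SCARNA2 is 420 nt long and had galactose sites at nt 257 and 1 nt past its last base, a low glucose site at nt 176 and normal glucose sites at nt 3 and 260. The sites at nt 257 in galactose and 260 in normal glucose were 3 nt apart. SCARNA12, in PHB2, had sites at nt 222 and 223 of 270 in galactose and at nt 224 and 73 in low glucose. SNORA44, in SNHG12, had outer sites at nt 11 and 107 of 132 in low glucose and at nt 10 and 11 in normal glucose, and SNORA80B, in ODC1, at nt 13 and 82 of 136 in low glucose and at nt 13 and 80 in normal glucose. In these RNAs at least 1 site recurred within 3 nt.

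Some RNAs shared a site between galactose and low glucose while a further site was in 1 of these lists. SNORA10 had nt 134, the base after its end, in both, and low glucose added nt 84. SNORA50C had nt 80 in both, and low glucose added nt 134, again the base after its end. SNORA65 had nt 94 in both, and low glucose added nt 131, the base after its end. SNORA67 had nt 138, the base after its end, in both, beside nt 106 and the 5′ end in galactose and nt 41 in low glucose. For SNORA51, galactose added a second peak with outer sites at nt 117 and 133 of the 132 nt RNA. SNORA48 had the site 2 nt before its first base in galactose and normal glucose, and galactose added nt 96 of 135.

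Away from the ends there were 49 outer sites, and 39 of them lay in 23 SNORA genes with a box H match. Box H began between nt 57 and 81 (median 61.0). Of the 39 sites, 32 lay downstream of the start of box H (82.1%, interval 66.5 to 92.5), where 56.0% of the length of these RNAs (median) is found. Some sites were neighbours in 1 peak or the same base in 2 lists, so they are not independent and the interval is too narrow. With each position counted once, 30 of 35 lay downstream. In 8 genes, 11 sites were 17 to 21 nt downstream of that start, a window chosen after the distances had been seen. Of these RNAs, 6 are shown from the start of box H, with box H and the base at the site in capitals.
SNORA50C: AGAGCAtgtgcttgcgcatAactggggccg
SNORA7A: AAAGCAagcctggcagaggcaCccattcca
SNORA52: AGAGCAccctagaagcctCacccgaggagt
SNORA70: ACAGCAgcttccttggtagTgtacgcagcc
SNORA17A: AGATTAgagaggctatgTctacgctcagcg
SNORA5C: ACAGCAagctccacagctCatgggccctgg
The stretches are, in this order, chr17:64146399-64146428 (plus strand), chr3:12840361-12840390 (minus), chr11:811739-811768 (plus), chrX:154400344-154400373 (plus), chr9:136726789-136726818 (minus) and chr7:45104951-45104980 (minus). The distance from the start of box H was 19 nt for SNORA50C in galactose and in low glucose, 21 nt for SNORA7A in low glucose and 19 nt for SNORA70 in normal glucose. SNORA17A had 17 nt in low glucose, SNORA5C 18 and 19 nt in low glucose, and SNORA52 18 and 19 nt in normal glucose. The other 2 genes of the window were SNORA10 (21 nt, low glucose) and SNORA80B (20 nt, normal glucose). Just outside the window, SNORA7A had a site at 22 nt in normal glucose and SNORA80B a site at 22 nt in low glucose. Of the 11 sites, galactose supplied 1, low glucose 6 and normal glucose 4, and the galactose site was the one that low glucose also had in SNORA50C.

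**Figure D4:**
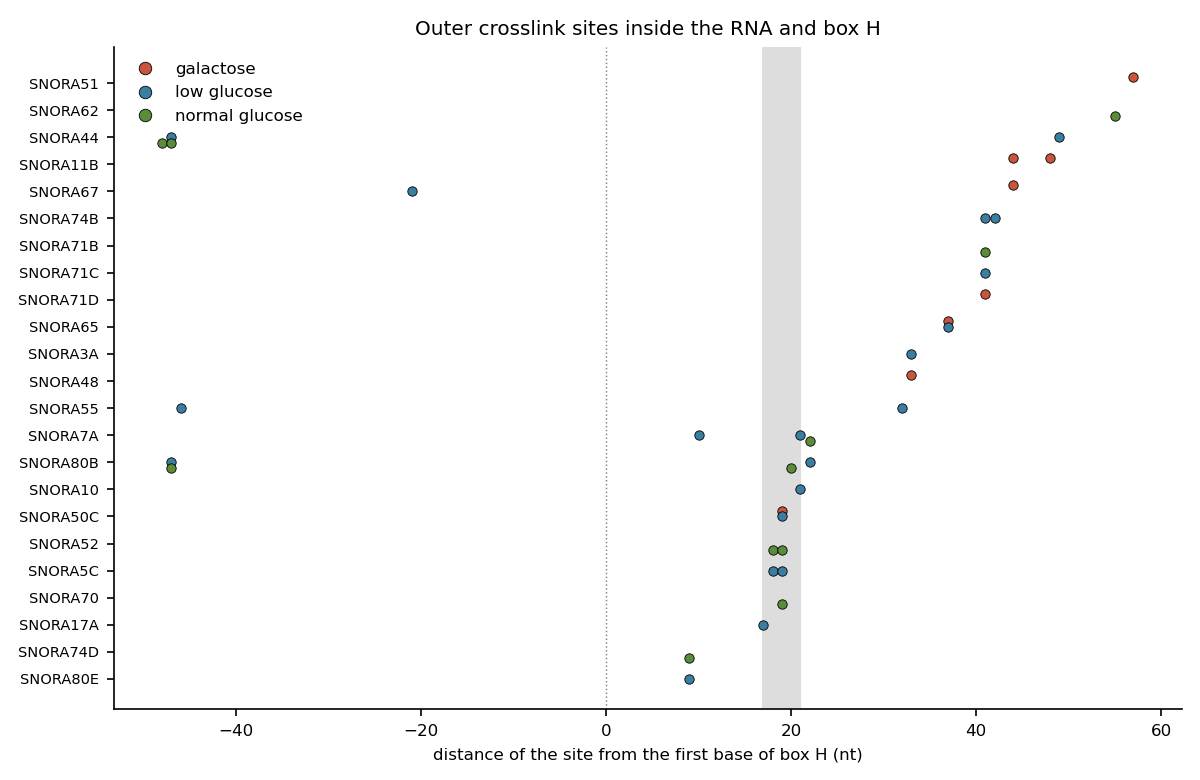
Distance in nt of each outer site inside a SNORA RNA from the first base of its box H (dotted line at 0), by gene and list; the grey band marks 17 to 21 nt. Of the 39 sites, 32 lie to the right of the line and 11 in the band.

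Further downstream, 5 sites in 4 genes lay 32 to 37 nt after the start of box H (SNORA3A, SNORA48, SNORA55 and SNORA65). This range too was chosen after the distances had been seen. More genes had sites just past it, at 41 to 49 nt (SNORA11B, SNORA44, SNORA67, SNORA71B, SNORA71C, SNORA71D and SNORA74B). Upstream of box H there were 7 sites, in SNORA44, SNORA55, SNORA67 and SNORA80B.

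The 3 SNORA71 copies with a peak all lie in introns of SNHG17, and each was found in another list: the galactose list had SNORA71D, the low glucose list SNORA71C and the normal glucose list SNORA71B. Each peak held a single site, 41 nt downstream of the start of box H in all 3. The surrounding bases are shown with the site in capitals, because the copies are nearly the same there.
SNORA71D: gtgtttggagggtccGctcctgtccctttc
SNORA71C: gtgtttggagggtccActcctgtctcttcc
SNORA71B: gtgtttgaagggtccActcctatcccttcc
They lie at chr20:38433886-38433915, chr20:38429691-38429720 and chr20:38425219-38425248, all on the minus strand. Of the 30 bases, SNORA71D shared 27 with SNORA71C and 26 with SNORA71B, and SNORA71C shared 27 with SNORA71B. None of the 30-mers in these 3 peaks occurred a second time in hg38, and over their whole length the copies were 82.6% to 87.7% identical. The same place in a closely related RNA was thus listed in every medium under another gene name. GENCODE gives SNORA71B 272 nt, whereas its RefSeq model has 136 nt, and by RefSeq ends the site is nt 100 in SNORA71D and SNORA71C and nt 98 in SNORA71B.

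Each of the 32 genes shared its peaks with a host gene on the same strand, and 29 lay in introns only by the canonical transcripts of their hosts. SNORA50C lies in an exon of SNHG25, SCARNA2 in an exon of the lncRNA ENSG00000270066, and SNORA67 in an intron of EIF4A1 and an exon of the lncRNA ENSG00000264772. From positions alone, mature RNA and unspliced host transcript cannot be told apart, whether a site lies inside the RNA or next to its annotated end.

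Ribosomal protein genes hosted 10 of the 32, among them RPS2 (SNORA10 and SNORA64), RPL27A (SNORA3A), RPLP2 (SNORA52), RPSA (SNORA62), RPL12 (SNORA65), RPL5 (SNORA66), RPL10 (SNORA70) and RPL32 (SNORA7A). They had 6 galactose peaks, 7 low glucose peaks and 6 normal glucose peaks. SNORA3A was listed in low glucose only, with outer sites at nt 93 and 131, the base after its end. SNORA62 had a single site at nt 128 of 153 and SNORA66 a single site 2 nt before its first base, both in normal glucose only. Ribosomal protein hosts thus supplied a similar number of peaks to each list.

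Small nucleolar RNA host genes (SNHG), lncRNAs processed to release snoRNAs, hosted 9: SNORA17A (SNHG7), SNORA44 (SNHG12), SNORA50C (SNHG25), SNORA71B, SNORA71C and SNORA71D (SNHG17), SNORA73A and SNORA73B (SNHG3, which shares its locus with RCC1) and SNORA74D (SNHG4). They had 2 galactose peaks, 5 low glucose peaks and 6 normal glucose peaks. SNORA74D had outer sites 3 nt before its first base and at nt 72 of 141, in normal glucose. The annotated snoRNAs ENSG00000281808 and ENSG00000281311 shared the peaks of SNORA17A and SNORA50C, and reads of these overlapping genes cannot be told apart.

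Other protein coding genes hosted 12, with 8 galactose peaks, 10 low glucose peaks and 3 normal glucose peaks. The hosts included EIF4A1, the RNA helicase of translation initiation (SNORA48 and SNORA67), NOP56, a core protein of box C/D snoRNPs (SNORA51), ODC1, the first enzyme of polyamine synthesis (SNORA80B), PHB2 (SCARNA12), NSD2, a histone methyltransferase (SCARNA22), and DGLUCY (SNORA11B). The others were PABPC4 (SNORA55), CSKMT (SNORA57), TBRG4 (SNORA5C), ATP6V0E1 (SNORA74B) and KHDC4 (SNORA80E). SNORA11B, in galactose, had a site 2 nt before its first base and a second peak with outer sites at nt 102 and 106 of 129. In low glucose, SNORA55 had outer sites at nt 13 and 91, SNORA74B at nt 102 of 201 and the base before it, and SNORA80E at nt 70 and 138, the base after its end. SNORA57, in normal glucose, had outer sites 3 nt before its first base and at nt 91 of 149. The remaining host was the lncRNA of SCARNA2, whose 5 peaks are given above.

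Not every H/ACA RNA of a host was listed. The hosts contain 46 annotated SNORA or SCARNA entries in all. Among them, SCARNA4, SNORA16A and SNORA17B each have more than 1 entry under the same symbol. Of the 46, the 32 genes had a peak. Without one were, for example, SNORA71A in SNHG17, SNORA74A in SNHG4, SNORA5A and SNORA5B in TBRG4, SNORA3B in RPL27A and SNORA6 in RPSA. Some hosts also had peaks elsewhere in the gene, such as RPS2 (1 galactose, 2 low glucose and 1 normal glucose peak) and RPLP2 (1 galactose, 3 low glucose and 2 normal glucose peaks). For NOP56, ODC1, PHB2 and SNHG17 no other peak was listed.

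Single-site peaks made up 11 of 18 galactose peaks (61.1%, against 57.6% of all), 10 of 23 low glucose peaks (43.5%, against 47.1%) and 9 of 17 normal glucose peaks (52.9%, against 64.8%). Among the peaks of these RNAs, the widest in galactose was on SNORA7A (242 nt), the widest in low glucose on SNORA67 (198 nt, against 262 nt over all peaks) and the widest in normal glucose on SNORA57 (194 nt, against 266 nt). RNase T1, which cuts after G, had been used to trim the RNA, so the base before the site was examined in single-site peaks. It was G in 4 of 11 galactose peaks (36.4%, against 24.3% of all single-site peaks on 1 annotated strand), in 2 of 10 low glucose peaks (20%, against 26.1%) and in 3 of 9 normal glucose peaks (33.3%, interval 7.49 to 70.1, against 62.8%). The 62.8% of all single-site normal glucose peaks on 1 annotated strand lay within the interval of the 9 H/ACA and scaRNA peaks.

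Genes for proteins and RNAs that work with H/ACA RNAs were looked up as well. Of 18 genes for H/ACA proteins, their assembly and trafficking factors, pseudouridine synthases, nucleolar proteins and telomerase RNA, 2 had a peak: TERC in galactose and NCL, which encodes nucleolin, in normal glucose (chr2:231457745-231457845). The genes for the core proteins DKC1, NHP2, NOP10 and GAR1 were not among those with a peak. The share of all annotated genes with a peak is not given here, so 2 of 18 is a description without a background. TERC, the telomerase RNA, ends in an H/ACA domain of its own. Its single site (chr3:169764559-169764659) lay 1 nt past the last base of the 451 nt RefSeq model, the same distance as in 18 of the 19 sites at 3′ ends of the H/ACA snoRNAs and scaRNAs above, whereas the GENCODE model of 541 nt extends 89 nt beyond it.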

How the data were processed

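GAPDH CLIP-seq of MOLM-13 cells was deposited as 3 lists of peaks, 1 for each condition, each joined by the authors from 2 samples. The deposited columns are other than measured levels: chromosome, start, end, Ensembl identifier and symbol, with no counts, scores or strands. The submitters' processing notes name cutadapt, STAR and hg38 without versions. Per the study's methods, PureCLIP called crosslink sites, nearby sites were merged and solitary ones extended, and the annotation release is not given in the sources used here. Peak calling and joining decide which places could appear, and short RNAs with copies depend on how reads with several matches were treated, which is not given in the sources used here.

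Members and lists were chosen with earlier results of these data known. Named genes were all SNORA and SCARNA symbols, other genes on the same peaks, and genes with a peak from the H/ACA machinery list. The host, position and sequence of 1 member are not reported here. Distinct positions were counted once and starts read as 1-based. Identifiers and symbols of all 32 matched GENCODE release 44, and 20 of the 32 have the same ends in the RefSeq table (GRCh38). Peaks were called recurrent when over 50% of their 30-mers occurred more than once in hg38. The last ANANNA starting before the midpoint, on the strand of the RNA, served as box H. No test was made, since each condition has 1 list. Analyses used Python 3.11.15, numpy 2.4.6 and scipy 1.17.1, and scripts were tested on simulated data.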

Additional observations from a re-analysis of the deposited data

How the results depend on the processing

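Under the alternatives tried, 54 of 60 values, over 14 results, stayed within the 95% interval of the reported value. The 6 that did not all came from asking for identical start and end in place of 1 nt of overlap, which is stricter by construction. Identical peaks in low glucose were then found for 16.7% of galactose peaks and in normal glucose for 5.56%. For low glucose peaks they were found for 13.0% (in galactose) and 4.35% (in normal glucose), and for normal glucose peaks for 5.88% (in galactose) and 5.88% (in low glucose). Intervals from 17 to 23 peaks are wide, so a value could move far and stay inside. With overlap of 50% of both peaks, galactose peaks met by low glucose fell from 61.1% to 44.4% and stayed inside. The alternatives also re-count the same peaks. The share of peaks with an outer site at an end ranged from 53.4% (within 3 nt) to 64.1% (merged regions), and the share of regions in all 3 lists from 4.65% (overlap of 50% of both peaks) to 11.8% (peaks within 50 nt joined). The tolerances of 3 and 10 nt, RefSeq ends and leaving out recurrent peaks for the place along the RNA were chosen after seeing the data. No paired analysis was possible because the samples of each condition were joined into 1 list, and for the same reason no sample could be left out. Read depth is unknown, so the absence of an RNA from a list does not show that it was not bound. The labels of the 6 samples name no input or control precipitation, so presence in a list does not by itself show specific binding.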
